A study of Mus musculus with 28 samples.

Results

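The myocyte enhancer factor 2 (MEF2) genes Mef2a, Mef2b, Mef2c and Mef2d were followed through the differentiation of C2C12, an immortalised line of mouse myoblasts that fuses into multinucleated myotubes once serum is lowered. They were taken by symbol from the count table, where all 4 were present among 49089 genes, and 3 of the 4 were among the 15303 genes that carried enough reads to be tested. RNA-seq covered growth medium with 20% fetal bovine serum (GM) and 12, 24, 48, 60 and 96 h in differentiation medium with 3% horse serum, with 3 libraries in each of the 6 groups. Times are those of the sample titles, because the last time points in the growth protocols vary between samples. No group carried a genetic change or a drug, and the line is a clonal model of the myoblast rather than a muscle. Open chromatin was mapped by ATAC-seq and chromatin contacts by Hi-C in GM and at 60 h, and these came as 1 list per condition. The labels number biological replicates but name no separate cultures. The p-values therefore rest on the scatter of these libraries alone, and that scatter may be technical.

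MEF2 proteins are transcription factors with a MADS box and an adjoining MEF2 domain, through which they pair and bind an A/T-rich element in the control regions of muscle genes. In muscle they act beside the MyoD family of basic helix-loop-helix factors, which bind E-boxes, and MEF2 alone does not start the muscle programme. Class IIa histone deacetylases (HDACs) hold MEF2 silent at its targets, and calcium-dependent kinases and p38 kinases release or activate it. The 4 genes code for related proteins with overlapping use: Mef2c is known for its part in heart and skeletal muscle development, Mef2a and Mef2d for broad expression, and Mef2b for its role in B cells.

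Libraries held 24.2 to 36.4 M counts. Levels below are CPM, read counts relative to library size after TMM scaling, and are compared within a gene only, because no exon lengths were used. The 24 h library of replicate 3 stood apart in Polr2a and Hspg2. They were 1.73 and 1.28 higher on the log2 scale there than the mean of replicates 1 and 2. In the same library Mef2a was 0.15, Mef2c 0.17 and Mef2d 0.06 above the mean of the other two on that scale. Without it the log2 change from GM to 24 h was 0.94 for Mef2a, 0.53 for Mef2c and 0.27 for Mef2d, each still called (edgeR adjusted p of 1.12e-11, 0.00239 and 0.00479). Of the 6 myoblast markers (Myod1, Myf5, Pax7, Des, Cdh15, Ncam1), none was at or under 3 counts in a group, and their summed level was 938 to 973 CPM in GM and 2366 to 2638 CPM at 96 h. Markers of other cell types were partly present. The summed level of 6 fibroblast markers was 947 to 973 CPM in GM and 1190 to 1287 CPM at 96 h. Thy1 was at or under 3 counts in every library, as were the genes so named for the lists below. Other markers were that low in some groups only, such as the fibroblast marker Lum, with no read in GM. The 5 endothelial markers summed to between 0.56 and 0.86 CPM in GM and reached at most 3.30 CPM, in a library of 48 h, with Cdh5 at or under 3 counts. The 5 neuronal markers summed to between 86.7 and 92.8 CPM in GM and between 36.7 and 38.6 CPM in the last group, with Rbfox3 and Snap25 at or under 3 counts. Adipocyte markers went from 29.7 to 33.5 CPM down to 20.8 to 21.0 CPM (Adipoq and Plin1 at or under 3 counts), and bone markers from 12.6 to 14.8 CPM down to 8.64 to 9.71 CPM (Ibsp at or under 3 counts). The 5 smooth muscle markers summed to between 492 and 497 CPM in GM and between 1370 and 1576 CPM in the last group. Single genes carried these sums and did not all go the same way. Acta2 averaged 450 CPM in GM and 1413 CPM at 96 h, Tagln 42.7 and 45.6 CPM and Cnn1 1.78 and 0.12 CPM. Of the myoblast markers Des averaged 552 and 1617 CPM and Myf5 74.0 and 32.5 CPM, and of the fibroblast markers Col1a2 867 and 901 CPM and Dcn 10.6 and 163 CPM. The part of these levels in the results below was not tested. In bulk RNA a change in the number of cells of a type and a change in RNA per cell cannot be told apart.

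Mef2a, Mef2c and Mef2d followed 3 different courses. Mef2a climbed early and stood still between 48 and 60 h, and Mef2c gained most of its CPM after 60 h (about as much before as after 60 h on the log2 scale). Mef2d was a little above GM at 24 and 48 h, near its GM level at 60 h and highest at 96 h. Log2 fold changes carry the standard error (SE) of the fit after ±. Adjusted p-values are those of the edgeR quasi-likelihood F test, corrected over all tested genes by Benjamini and Hochberg's method. Each of the 3 differed over the 6 groups (edgeR adjusted p of 1.03e-18 for Mef2a, 2.77e-20 for Mef2c and 5.75e-13 for Mef2d), as did 86% of all tested genes.

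**Figure D1:**
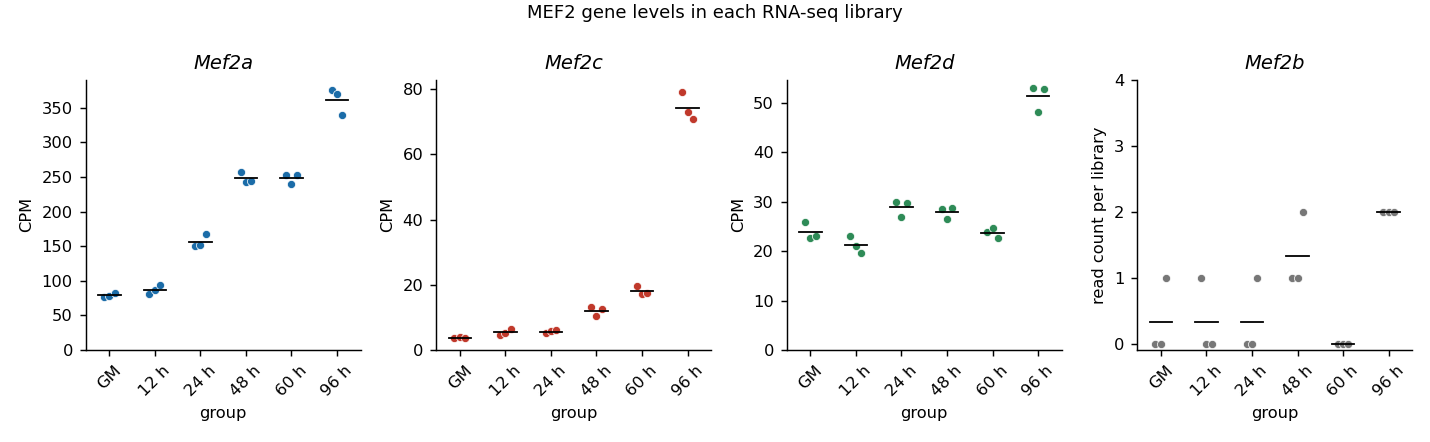
Level of each MEF2 gene in every RNA-seq library, by group on the x axis. The y axis is CPM for Mef2a, Mef2c and Mef2d and the raw read count for Mef2b, points are libraries and bars are means of 3. Mef2c reaches 70.6 to 79.1 CPM at 96 h from 3.59 to 4.09 CPM in GM, and Mef2b never exceeds 2 reads.

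Mef2a, the gene for a MEF2 protein found in many tissues, is on the minus strand at chr7:67231163-67376456 (GRCm38, the mm10 assembly), a span of 145 kb. Its level in the 3 GM libraries was 77.2, 78.2 and 83.0 CPM, and at 12 h it was 81.1, 86.7 and 94.4 CPM. At 24 h it was 150, 152 and 168 CPM, at 48 h 257, 243 and 244 CPM, and at 60 h 253, 240 and 253 CPM. The 96 h libraries held 375, 370 and 339 CPM. The GM and 12 h libraries overlapped and so did those of 48 and 60 h, while 24 h and 96 h stood clear of the groups before them. Against GM the difference at 12 h was 0.14 ± 0.06 on the log2 scale and missed the threshold (edgeR adjusted p = 0.0709), in a contrast where 35% of tested genes were called. That miss depends on the scaling and on single libraries: DESeq2 gave 0.16 (adjusted p = 0.0259), and the call was made in 11 of 18 fits that left out 1 library, with the estimate between 0.10 and 0.21. Mef2a was 1.97-fold higher at 24 h (log2 0.98 ± 0.06, edgeR adjusted p = 3.44e-12), 3.12-fold at 48 h and 4.55-fold at 96 h (log2 2.19 ± 0.06, edgeR adjusted p = 1.35e-18). Between 48 and 60 h the log2 difference was 0.00 ± 0.06 (edgeR adjusted p = 0.963), with a 95% interval from -0.11 to 0.12. From 60 to 96 h Mef2a rose by 0.54 ± 0.06 on the log2 scale (edgeR adjusted p = 6.09e-08).

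Mef2c, the member tied to heart and skeletal muscle development, is on the plus strand at chr13:83504017-83667079, a span of 163 kb. In GM its 3 libraries held 103, 134 and 108 reads, or 3.82, 4.09 and 3.59 CPM. The level was 4.77, 5.40 and 6.42 CPM at 12 h and 5.11, 5.83 and 6.14 CPM at 24 h. It was 13.1, 10.4 and 12.6 CPM at 48 h and 19.7, 17.2 and 17.6 CPM at 60 h. At 96 h it was 79.1, 73.0 and 70.6 CPM. The 12 h and 24 h libraries overlapped, and every other neighbouring pair of groups was clear of overlap. Mef2c rose 1.44-fold by 12 h (log2 0.53 ± 0.12, edgeR adjusted p = 0.00207), was 1.48-fold above GM at 24 h, and reached 3.13-fold by 48 h. From 12 to 24 h the log2 difference was 0.04 ± 0.11 (edgeR adjusted p = 0.776), with a 95% interval from -0.19 to 0.28. Between 60 and 96 h it rose 4.09-fold (log2 2.03 ± 0.09, edgeR adjusted p = 3.17e-14), and 1.46% of tested genes had a larger absolute change in that step. At 96 h it was 19.3-fold above GM (log2 4.27 ± 0.10, edgeR adjusted p = 1.96e-19).

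Mef2d, also broadly expressed in the body, is on the plus strand at chr3:88141941-88172091, a span of 30.2 kb. Its GM libraries held 25.9, 22.7 and 23.1 CPM, and those of 12 h 23.1, 21.0 and 19.6 CPM. The 24 h libraries held 30.0, 27.0 and 29.7 CPM, those of 48 h 28.6, 26.5 and 28.8 CPM, and those of 60 h 23.8, 24.8 and 22.7 CPM. At 96 h it was 53.0, 48.2 and 52.7 CPM, clear of all earlier groups. Ordered by mean level, 12 h came lowest, followed by 60 h, GM, 48 h, 24 h and 96 h, and of the neighbours in this order only GM and 48 h, and 24 h and 96 h, did not overlap. From 12 to 24 h Mef2d rose by 0.44 ± 0.07 on the log2 scale (edgeR adjusted p = 1.04e-05). From 48 to 60 h it fell by 0.24 on that scale (SE 0.07, edgeR adjusted p = 0.0152), a call lost without 60 h replicate 3 (-0.20, adjusted p = 0.0814). From 60 to 96 h it rose 2.16-fold (log2 1.11 ± 0.07, edgeR adjusted p = 1.19e-11).

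Against GM, Mef2d was lower by 0.17 ± 0.07 on the log2 scale at 12 h, without passing the test (edgeR adjusted p = 0.0636). It was called without 12 h replicate 1 (-0.21, adjusted p = 0.0297), and the estimate was -0.087 without 12 h replicate 3 and also without GM replicate 1. It was higher by 0.27 ± 0.07 at 24 h (edgeR adjusted p = 0.00157) and by 0.23 ± 0.07 at 48 h (edgeR adjusted p = 0.00641), the latter call being lost without GM replicate 2 (0.17, adjusted p = 0.0665). At 60 h the difference was -0.01 ± 0.07 (edgeR adjusted p = 0.923), with a 95% interval from -0.15 to 0.14, and at 96 h Mef2d was 2.15-fold higher (edgeR adjusted p = 2.3e-12). Polr2a, the gene of the largest RNA polymerase II subunit, had a mean of 62.7 CPM in GM, 15.8 at 12 h, 25.3 at 24 h, 16.3 at 48 h, 10.3 at 60 h and 61.2 at 96 h. Hspg2, which codes for the large matrix proteoglycan perlecan, had means of 364, 104, 179, 162, 104 and 614 CPM in the same order. Over the 18 libraries Pearson's r of log2 CPM with Polr2a and Hspg2 was 0.53 and 0.75 for Mef2d, -0.07 and 0.23 for Mef2a, and 0.16 and 0.43 for Mef2c. These are descriptions over libraries that share 6 groups, and the part of those transcripts in the course of Mef2d was not tested.

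Mef2b, known from B cells, is on the plus strand at chr8:70152761-70167488 and was at the limit of detection. It had 13 reads in all 18 libraries together out of 547 M counts, and 9 libraries had any. The counts were 0, 0 and 1 in GM, 1, 0 and 0 at 12 h, 0, 0 and 1 at 24 h, 1, 1 and 2 at 48 h, 0 in each library at 60 h, and 2 in each at 96 h. The 60 h libraries together allow a level of up to 0.0372 CPM (3 counts of their summed total, counting error only). Mef2b failed the count filter, and with no filter its test of any difference gave an edgeR adjusted p of 0.283. RefSeq places a further gene, Gm45929, over both Mef2b and its neighbour Borcs8, so the source of so few reads is uncertain.

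Counted for the 3 tested members, 1 of 3 was called at 12 h against GM, 3 of 3 at 24 h and 48 h, 2 of 3 at 60 h and 3 of 3 at 96 h. Over all tested genes the share called was 35% at 12 h, 60.8% at 24 h, 65.4% at 48 h, 65.3% at 60 h and 68.8% at 96 h, so with 3 genes these counts are near what the table shows at large. For the steps, 2 of 3 were called from 12 to 24 h, 2 of 3 from 24 to 48 h, 2 of 3 from 48 to 60 h and 3 of 3 from 60 to 96 h. The shares over all tested genes were 54.3%, 32.3%, 27.2% and 47.2% in that order. These contrasts with GM share the same 3 GM libraries.

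**Figure D2:**
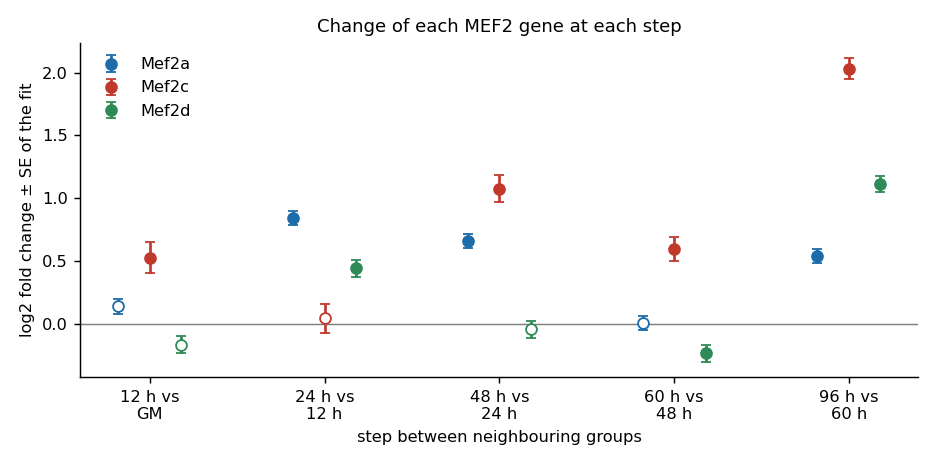
Log2 fold change of Mef2a, Mef2c and Mef2d (y axis) at each step between neighbouring groups (x axis). Bars are the SE of the fit and filled points have an edgeR adjusted p under 0.05. Mef2a has its steps of 0.84 and 0.66 at 24 and 48 h and stands at 0.00 from 48 to 60 h, where Mef2c is at 0.59 and Mef2d at -0.24.

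On the linear CPM scale the distance from the GM mean to the 96 h mean was set to 100% for each gene. Mef2a had covered 27.4% ± 3.39 (SD, n = 3) of it at 24 h, 59.7% ± 2.71 at 48 h and 60.0% ± 2.71 at 60 h. Mef2c had covered 2.64% ± 0.75 at 24 h, 11.6% ± 2.05 at 48 h and 20.4% ± 1.96 at 60 h. Mef2d stood at 18.2% ± 6.03 at 24 h, 14.8% ± 4.72 at 48 h and -0.58% ± 3.81 at 60 h. At 60 h, therefore, the 3 libraries of Mef2a were past the middle of the course and those of Mef2d were at the starting level within their spread.

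The log2 ratio of 2 members within a library needs no scaling between libraries. Mef2c to Mef2a shifted by 0.38 at 12 h, -0.42 at 24 h, -0.01 at 48 h, 0.58 at 60 h and 2.07 at 96 h relative to GM, so the ratio was above GM at 12 h, below it at 24 h and highest at 96 h. The libraries of each time were clear of the GM libraries except at 48 h, where the difference was smaller than the spread (SD 0.15 at 48 h and 0.14 in GM). Mef2a to Mef2d shifted by 1.65 at 60 h and 1.08 at 96 h, and Mef2c to Mef2d by 2.23 and 3.15. With 3 libraries against 3 the two-sided exact permutation test cannot give a p below 0.1, which it gave for 12 of the 15 ratios and times compared (0.125 after Benjamini-Hochberg adjustment). The other 3 were Mef2c to Mef2a at 48 h (exact p = 0.8), Mef2a to Mef2d at 12 h (exact p = 0.2) and Mef2c to Mef2d at 24 h (exact p = 0.2). The 15 are not independent: Mef2c to Mef2d follows from the other ratios, and all use the same GM libraries. Other gene pairs were not counted, so the count of 12 is a description.

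Among the 9118 tested genes whose log2 CPM averaged 3 or more, the course most like that of Mef2a over the 18 libraries was that of Chrng, the fetal gamma subunit of the acetylcholine receptor (r = 0.995). Chrng rose from 3.50 ± 0.43 CPM (SD, n = 3) in GM to 58.5 ± 3.75 at 60 h and 185 ± 14.8 at 96 h. Tgfb2, a secreted growth factor, and Sh3glb1, which bends intracellular membranes, followed with r = 0.995 and 0.993. Nearest to Mef2c were Tpm2, which codes for beta-tropomyosin of the thin filament (r = 0.992), Slc12a2, a sodium-potassium-chloride cotransporter (r = 0.991), and Rap1gap2, which switches off the GTPase Rap1 (r = 0.989). Nearest to Mef2d were Abca2, a lipid transporter (r = 0.979), Ulk1, the kinase that starts autophagy (r = 0.970), and Map7d1, a microtubule-associated protein (r = 0.970). These values describe libraries that share 6 groups. By Spearman's rho Abca2 and Ulk1 stayed among the nearest 3 of Mef2d, Tgfb2 tied with another gene for the last of the nearest 3 of Mef2a, and other genes took the remaining places for Mef2a and Mef2c.

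The loci were then set beside the deposited chromatin data. The RefSeq promoter table used holds 1 start site each for Mef2a, Mef2b and Mef2d and 3 for Mef2c, the others lying 19.6 and 69.6 kb into the gene. The RefSeq span of Mef2a begins upstream of the start site in that table, and any start there was not analysed here. Windows of 4 of the 6 start sites are shown because they carry the differences described next: that of Mef2a holds a MEF2 element, and the 3 of Mef2c differ in accessibility. Each run reads 5′ to 3′ on the gene's strand, from 250 bases before the RefSeq start site to 30 bases into the transcript, on GRCm38.p6. Capitals mark the MEF2 consensus (in Mef2a) and E-boxes, CANNTG (in Mef2c). The windows are chr7:67372829-67373108 on the minus strand for Mef2a, and chr13:83503784-83504063, chr13:83523406-83523685 and chr13:83573357-83573636 on the plus strand for the start sites of Mef2c in order.
Mef2a: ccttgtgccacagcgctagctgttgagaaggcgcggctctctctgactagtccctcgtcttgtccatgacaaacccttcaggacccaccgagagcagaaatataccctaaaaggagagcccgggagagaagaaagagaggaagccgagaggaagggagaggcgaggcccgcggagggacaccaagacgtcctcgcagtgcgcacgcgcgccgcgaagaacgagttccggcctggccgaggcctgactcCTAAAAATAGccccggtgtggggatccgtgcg
Mef2c, start site 1: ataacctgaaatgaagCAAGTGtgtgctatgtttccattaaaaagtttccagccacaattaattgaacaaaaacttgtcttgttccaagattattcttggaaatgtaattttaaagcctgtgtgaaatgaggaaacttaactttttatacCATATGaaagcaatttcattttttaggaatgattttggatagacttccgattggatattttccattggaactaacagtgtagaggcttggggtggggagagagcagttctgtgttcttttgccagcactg
Mef2c, start site 2: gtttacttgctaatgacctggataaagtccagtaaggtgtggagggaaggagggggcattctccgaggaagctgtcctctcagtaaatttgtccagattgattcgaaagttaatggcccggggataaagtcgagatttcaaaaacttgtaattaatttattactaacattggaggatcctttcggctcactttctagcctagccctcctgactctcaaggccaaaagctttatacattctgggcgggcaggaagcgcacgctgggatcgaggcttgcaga
Mef2c, start site 3: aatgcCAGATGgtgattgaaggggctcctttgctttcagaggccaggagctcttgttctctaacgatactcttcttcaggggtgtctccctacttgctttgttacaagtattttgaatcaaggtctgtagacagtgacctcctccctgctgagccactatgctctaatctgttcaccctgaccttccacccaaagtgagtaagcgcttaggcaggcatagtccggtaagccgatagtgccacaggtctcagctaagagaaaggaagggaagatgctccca

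The window of Mef2a held a match to the MEF2 consensus, CTAAAAATAG, from 2 bases before the start site to the 8th base of the transcript (position -2 to 8). Such a match on either strand was found in 3.07% of the 32817 promoter windows of this length in RefSeq, and in none of the windows of Mef2b, Mef2c and Mef2d. A CANNTG E-box was present in 70.1% of all windows and in those of Mef2b, Mef2c's first start site (2 matches) and its start site 3. The MyoD-type E-box CAGCTG, in 14.9% of all windows, and its relatives CACCTG and CAGGTG, in 19.1%, were in none of the 6, and all of these are also CANNTG. The CArG box of serum response factor, in 1.56% of all windows, was in none of the 6. The muscle MCAT element, CATTCC on either strand and in 13.9% of all windows, was found once, in the window of Mef2c's first start site. A match describes letters in this window and does not show binding. The first window of Mef2c was A/T-rich, with 35.4% G and C and 1 CpG, against a median of 52.5% and 6 over all windows. Those of Mef2a and Mef2d had 61.4% and 72.9% and 24 CpG each.

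Presence of a peak differed between the deposited lists at 1 of the 6 start sites. Folds and q values are those of the authors' peak caller and rank peaks within a list only. At the first start site of Mef2c a peak was present in the 60 h list alone (chr13:83503581-83504530, fold 3.13, -log10 q 24.8), above 56.5% of the peaks of that list by q. This peak also overlaps Gm33317, a long non-coding RNA gene at chr13:83498349-83503901 that was absent from the count table. Windows (250 bases before to 50 after a start) with a peak in the 60 h list alone were 2.66% of all in RefSeq, those with a peak in the GM list alone 2.08%, those with a peak in both 47.8% and those with none 47.5%. The second start site of Mef2c had a peak in both lists (fold 6.07 in GM and 5.20 at 60 h), and so had the third (fold 4.79 and 2.72). Mef2a (fold 7.66 and 6.29), Mef2b (10.9 and 9.0) and Mef2d (2.08 and 2.02) each had a peak at the start site in both lists. Mef2b thus had a peak at its start site in both conditions at 13 reads over all libraries. Which start sites gave rise to the Mef2c reads was not analysed here, since the table holds 1 count per gene.

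**Figure D3:**
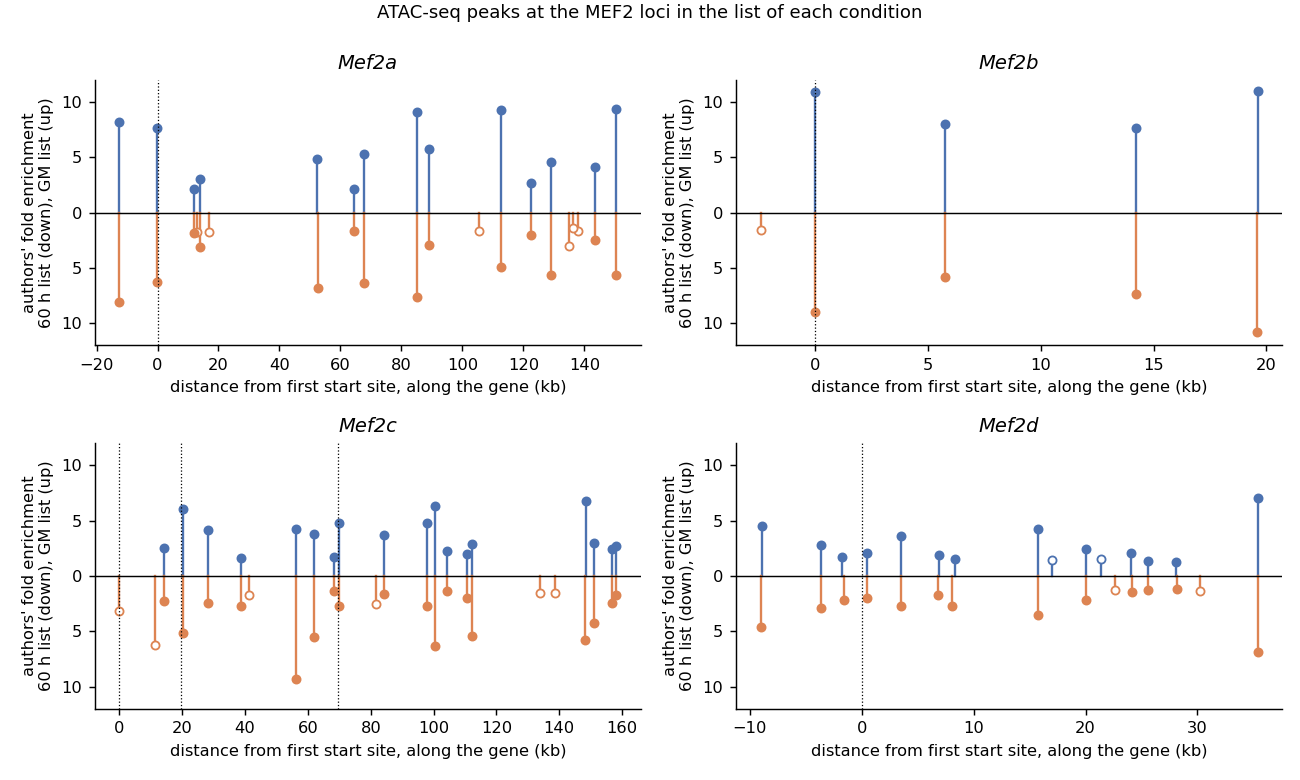
ATAC-seq peaks within 10 kb of each MEF2 gene, by distance of the peak centre from the first start site (x axis, kb). The y axis is the authors' fold enrichment, with the GM list upwards in blue and the 60 h list downwards in orange, open circles are peaks without overlap in the other list, and dotted lines are start sites of the promoter table. In Mef2c 6 peaks are open and all are in the 60 h list.

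Over the gene and 10 kb on each side, Mef2c had 18 peaks in the GM list and 24 in the 60 h list. All 18 GM peaks overlapped a 60 h peak by at least 1 base, and 6 of the 24 had no GM counterpart. That one-sidedness depends on the threshold: with both lists held to a -log10 q of at least 5, 3 GM peaks and 5 of 60 h had no counterpart. Of these 6, 3 had a -log10 q of at least 5: the one at the first start site, a stronger one 11.3 kb downstream of it (chr13:83514980-83515683, fold 6.22, -log10 q 99.3, above 79.1% of its list), and one 81.5 kb downstream (chr13:83585427-83585715, fold 2.56). Mef2a had 14 GM peaks, all shared, and 20 at 60 h, of which 6 were without a GM peak and 1 of those passed a -log10 q of 5 (chr7:67237776-67238138, fold 3.03). This too depends on the threshold. With both lists of Mef2a held to a -log10 q of at least 5, 2 GM peaks and 1 of 60 h had no counterpart. Mef2b had 4 and 5 peaks, with 1 weak peak in the 60 h list alone (-log10 q 2.21). Mef2d had 15 in each list, with 2 in each alone and none of those past a -log10 q of 5. In the whole lists 19.6% of 181622 GM peaks and 23.3% of 189516 60 h peaks had no counterpart. With 1 list per condition these differences have no replicate check.

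Each member lay whole inside 1 topologically associating domain (TAD), a stretch of chromosome whose parts contact each other more than their surroundings. Mef2d was in a TAD with the same edges in both conditions, chr3:87880001-89200000. For the other 3 the right edge was the same and the left edge differed by 1 bin of 40 kb. The TAD of Mef2a ran from chr7:66760001-67680000 in GM and from chr7:66720001-67680000 at 60 h. That of Mef2c was chr13:82680001-83680000 and chr13:82640001-83680000, and that of Mef2b chr8:69640001-70760000 and chr8:69680001-70760000. Of 2416 TADs in GM, 26.4% had both edges the same at 60 h, and 49.8% of the GM boundaries fell in the same bin. The 3′ end of Mef2c was 12.9 kb from the right boundary of its TAD, whose strength, a score of the authors, was 1.39 in GM (above 82.9% of the GM boundaries) and 1.66 at 60 h (above 87.1%). The left boundary had scores of 0.21 in both sets (above 11.7% and 9.35%). The other members were at least 262 kb from a boundary.

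The loop table, which gives 25 kb anchors and the condition of each loop, listed 31 loops with an anchor over Mef2c, 17 over Mef2a, 2 over Mef2d and 1 over Mef2b. Of the 31 at Mef2c, 17 were of GM alone, 10 of 60 h alone and 4 of both, or 54.8%, 32.3% and 12.9%, beside 51.1%, 37.7% and 11.2% of the 63732 loops of the table. The anchor at the 3′ end of Mef2c, chr13:83650001-83675000, took part in 18 loops, 9 of GM alone, 6 of 60 h alone and 3 of both. Of 54990 anchors with a loop the median had 2, and 22 (0.0400%) had more than this one. The same anchor holds the start site of Gm52044, a long non-coding RNA gene inside the Mef2c span that was absent from the count table. The far anchors of the 31 loops lay upstream of the first start site in 28, downstream of the gene in 2 and within it in 1, at 125 to 1825 kb between centres. A loop of both conditions joined the 3′ anchor to chr13:83525001-83550000, inside the gene. Loops on a start site were fewer: 2 at the third start site of Mef2c (1 of GM and 1 of 60 h alone) and none at its first or second.

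**Figure D4:**
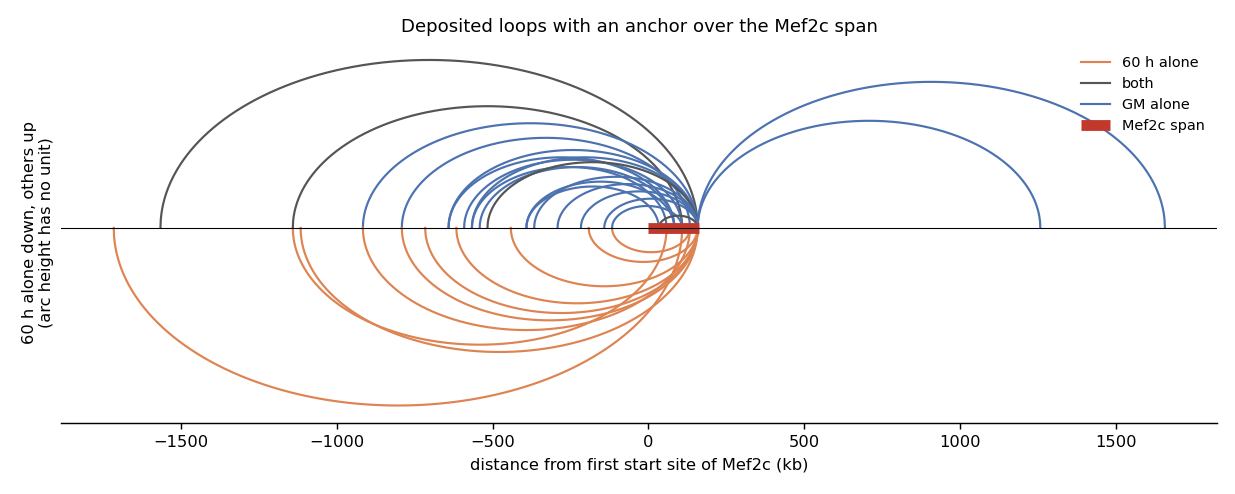
Deposited loops with an anchor over the Mef2c span (red), by distance of the anchor centres from its first start site (x axis, kb). Arcs join the anchors of a loop, upwards for loops of GM alone (blue) or both conditions (grey) and downwards for 60 h alone (orange), and arc height has no unit. Most arcs end at the 3′ end of the gene, where 18 of the 31 loops have an anchor.

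At the start site of Mef2a 5 loops were listed, 2 of GM alone, 1 of 60 h alone and 2 of both. One of both spanned 125 kb to the 3′ end of the gene (chr7:67225001-67250000), so that the 2 ends of Mef2a were joined in each condition. A loop of GM alone reached the start site of Fam169b, which was 3.36 higher at 60 h on the log2 scale (edgeR adjusted p = 2.16e-06) at a mean of 0.72 CPM. Mef2d had a loop of both conditions to the start site of Kirrel, a cell adhesion protein gene that fell by 0.56 on the log2 scale (edgeR adjusted p = 1.53e-07), and one of GM alone to that of Efna3 (-0.56, edgeR adjusted p = 0.0546). The loop of Mef2b, in both conditions, reached the start site of Ndufa13, a subunit of respiratory complex I (0.24, edgeR adjusted p = 0.000498).

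The GM TAD of Mef2a held 12 other RefSeq genes, 3 of them tested, and all 3 were higher at 60 h, beside 33.1% of all tested genes called higher and 32.2% called lower in that contrast. They were Adamts17, a secreted metalloproteinase gene (3.43 on the log2 scale at a mean of 0.15 CPM, edgeR adjusted p = 0.0078), Lrrc28 (0.54, edgeR adjusted p = 9.12e-05) and Lysmd4 (0.57, edgeR adjusted p = 2.72e-05). In the TAD of Mef2c none of 7 other RefSeq genes passed the count filter. In the TAD of Mef2b 16 of 41 tested genes rose, 15 fell and 10 were not called, and in that of Mef2d 7 of 38 rose, 16 fell and 15 were not called.

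Genes listed as partners, regulators or targets of MEF2, and splicing regulators, were read from 7 lists, by their counts and medians. The median log2 change over all tested genes was 0.01 at 60 h and at 96 h, and at 96 h 34.8% of them were called higher and 34.1% lower. Of 7 genes of the MyoD family and its E-protein partners, 4 rose and 2 fell at 60 h (median 0.56), and the same numbers held at 96 h (median 0.55). Myog, the gene of myogenin, rose 29.1-fold at 60 h, from 13.4 ± 0.20 CPM (SD, n = 3) to 388 ± 29.6 (log2 4.86 ± 0.07, edgeR adjusted p = 8.18e-22). Among the E proteins Tcf4 rose 2.22-fold, from 75.7 ± 4.86 to 168 ± 4.06 CPM, and Tcf3 fell by 0.79 on the log2 scale, from 89.4 ± 3.89 to 51.8 ± 0.92 CPM. Myf5, an early myoblast factor, fell by 0.70 on that scale.

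Of 8 class IIa HDACs and co-repressors, 2 rose and 4 fell at 60 h (median -0.12), and 3 rose and 2 fell at 96 h (median 0.10). Hdac9, itself a MEF2 target, rose 2.42-fold at 60 h, from 9.82 ± 0.49 to 23.7 ± 0.48 CPM (edgeR adjusted p = 1.28e-13), and Hdac5 rose 1.25-fold. Cabin1, which holds both calcineurin and MEF2, fell by 0.82 on the log2 scale. Of 9 tested co-activators of 10 listed, 2 rose and 6 fell at 60 h (median -0.52), and 5 rose and 2 fell at 96 h (median 0.28). Kat2b, an acetyltransferase, rose 1.91-fold at 60 h, and Mamstr, a muscle-specific MEF2 co-activator, rose 2.47-fold at a level of 1.11 ± 0.16 CPM. The acetyltransferases Crebbp and Ep300 fell by 1.00 and 0.85 on the log2 scale, from 45.5 ± 2.95 and 49.1 ± 3.67 CPM in GM to 22.8 ± 0.86 and 27.2 ± 1.41 CPM at 60 h. At 96 h they stood at 49.2 ± 1.19 and 59.5 ± 3.85 CPM. Polr2a and Hspg2 also had their lowest or near-lowest means at 60 h and stood at 61.2 and 614 CPM at 96 h, and their part in these falls was not tested.

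Of 24 tested kinases, phosphatases and scaffolds that signal to MEF2, of 26 listed, 10 rose and 9 fell at 60 h (median 0.00), and 10 rose and 8 fell at 96 h (median -0.01). Camk2a, a subunit of calcium/calmodulin-dependent kinase II, rose 13.1-fold at 60 h, from 0.32 ± 0.20 to 4.41 ± 0.57 CPM (edgeR adjusted p = 4.82e-12), and Camk2b 4.10-fold at a level of 0.29 ± 0.07 CPM. Akap6, an anchor of signalling enzymes at the nuclear envelope, rose 2.2-fold and Cdk5r1, the activator of Cdk5, 2.44-fold. The p38-activating kinases Map2k3 and Map2k6 fell by 0.93 and 0.82 on the log2 scale. All 8 splicing regulators were called at 60 h, 6 higher and 2 lower (median 0.43), and 7 were higher and 1 lower at 96 h (median 0.51). Celf2 rose 1.76-fold and Mbnl3 fell by 1.01 on the log2 scale, while Celf1 fell by 0.16. Rbfox1, a neuron and muscle splicing factor, had no read in GM and 8 to 16 per library at 60 h, which is at least 14.5-fold higher against a floor of 3 counts over the 3 GM libraries.

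All 18 muscle targets of MEF2 rose at 60 h (median 4.06, or 3.90 with genes absent from GM at their bound) and at 96 h (median 5.72). The list was chosen with earlier results of these data known, so this count is a description and not a test. Ckm, the muscle creatine kinase gene, went from 0.65 ± 0.22 CPM in GM to 43.6 ± 4.63 at 60 h, 68.2-fold (edgeR adjusted p = 2.08e-18). Smpx, a small muscle protein at the costamere, rose 48.1-fold and Srpk3, a muscle-specific kinase of splicing factors that is on both lists, 71.7-fold. Myl2, the regulatory light chain of slow and heart myosin, had no read in GM and was at least 16.7-fold higher at 60 h and at least 518-fold higher at 96 h. At 12 h 9 of the 18 were higher and 2 lower, at 24 h 15 were higher and none lower, and at 48 h all 18 were higher. Of all tested genes 17.8% were called higher and 17.2% lower at 12 h, 30.2% and 30.6% at 24 h, and 32.5% and 32.8% at 48 h. Of 5 tested other targets of 8 listed, 4 rose at 60 h and 5 at 96 h. Meg3, Rian and Mirg, also listed, had at most 1 read in any library and were not tested. Irs1, an adaptor of the insulin receptor, rose 1.55-fold at 60 h, Jun, of the AP-1 factor, 1.3-fold, and Ppargc1a, a co-activator of mitochondrial genes, 1.87-fold at a level of 1.59 ± 0.28 CPM.

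**Figure D5:**
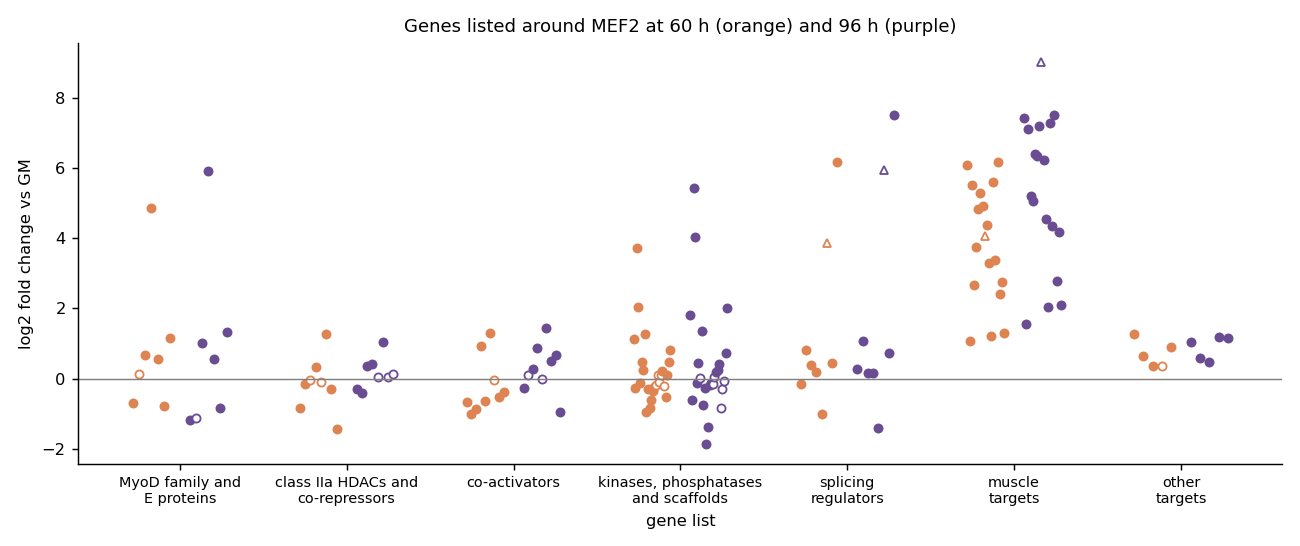
Log2 fold change against GM (y axis) of each tested gene in 7 lists around MEF2 (x axis), at 60 h in orange and 96 h in purple. Filled points have an edgeR adjusted p under 0.05, and triangles are lower bounds for Rbfox1 and Myl2, which had no read in GM. All 18 muscle targets lie above 0 at both times, while the co-activators have 6 of 9 called lower at 60 h and 2 of 9 at 96 h.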

How the data were processed

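The deposited count table holds unscaled whole numbers per gene. For RNA-seq, DESeq2, RSEM 1.3.0, STAR and build mm10 appear in the submitters' processing notes, without saying how estimates became whole counts or whether counting followed the strand of these strand-specific libraries. The deposited ATAC-seq lists, 1 per condition for 2 libraries, give a fold enrichment (a ratio) and −log10 q values, and MACS2 2.2.7 stands in the same notes. The authors' boundary strength is a score on 40 kb bins, deposited as 1 set per condition for 3 Hi-C libraries, with HiC-Pro 2.9.0 and edgeR in the notes. The sources used here do not give the domain and loop callers.

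Genes passing filterByExpr (15303) were fitted over all 18 libraries with edgeR 4.0.16 in R 4.3.3 (TMM, quasi-likelihood F test, group alone, 12 residual degrees of freedom) and called at an adjusted p under 0.05. Depth was 24.2 to 36.4 M counts, with a common biological coefficient of variation of 0.0621. The test was also run on counts simulated with the spread estimated from these libraries, which does not check that spread itself. In a list, at most 4 called genes with the largest change at 60 h were named, and at most 2 of opposite sign. A marker list and a listed gene that fall under these rules are not reported here. For each tested member, the 3 protein-coding genes with the highest Pearson r of log2 CPM (prior count 2) were named, and at the loci genes sharing a TAD or a start-site loop where few. The members and lists were chosen with earlier results of these data known. Promoters and positions come from RefSeq on GRCm38.p6. Alternatives were other scalings, DESeq2, other filters, fewer libraries, a replicate block, another prior count, Spearman's rho and other peak, overlap, boundary and anchor rules.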

Additional observations from a re-analysis of the deposited data

How the results depend on the processing

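With 1 peak list, domain set and loop table per condition, chromatin differences have no replicate check, and gene counts cannot assign Mef2c reads to a start site. The share of each member in the summed MEF2 level was not run, since no exon lengths were used. Of 234 values of the 3 tested members under other settings, 222 kept direction and side of the threshold, as did all 229 of named list genes. With 1 library left out, 506 of 540 member values and 522 of 522 named list gene values did so. Both member counts include F values of the test over all groups, which cannot change sign. Counts of called genes per list and direction stayed within 1.5 times the reported count in 224 of 224 cases under other settings and 504 of 504 with 1 library left out, which does not say that the members called were the same. The difference of Mef2a at 12 h was called under RLE scaling (0.16, adjusted p = 0.0406), with no filter (0.18), with a CPM filter (0.16) and by DESeq2 (0.16), and ranged from 0.10 to 0.21 with 1 library left out. From 48 to 60 h Mef2a had the other sign, uncalled, under RLE scaling (-0.016), upper quartile (-0.033), library total (-0.10), no filter (-0.026), a CPM filter (-0.031), 6 libraries (-0.022) and DESeq2 (-0.016), and ranged from -0.036 to 0.030 with 1 library left out. With 1 library left out, Mef2d ranged from -0.21 to -0.087 at 12 h (called without 12 h replicate 1), from 0.17 to 0.29 at 48 h, from -0.086 to 0.025 at 60 h and from -0.30 to -0.20 between 48 and 60 h, and Mef2c from -0.056 to 0.16 between 12 and 24 h. Replicate numbers did not pair the libraries: same-numbered ones correlated in their deviations at -0.18 to 0.15, with 2 of 45 over 0.1, and with a replicate block Mef2d at 12 h was called (-0.17, adjusted p = 0.039). Why these calls moved was not tested. Where both lists kept only peaks with a -log10 q of at least 5, peaks without a counterpart in the GM list numbered 2 at Mef2a, 3 at Mef2c and 1 at Mef2d, and those in the 60 h list 1 at Mef2a, 5 at Mef2c and 0 at Mef2b and Mef2d. At an overlap of 50% they numbered 1 in the GM list at Mef2c and 4 in the 60 h list at Mef2d. With 50 kb on each side, they numbered 10 in the 60 h list at Mef2a and at Mef2c, 5 in each list at Mef2b and 9 in the GM list at Mef2d. Allowing 1 bin, 2 of 2 TAD edges were kept at Mef2a, Mef2b and Mef2c, and with anchors within 25 kb of a start site Mef2a had 11 loops, Mef2b 4 and Mef2c 8.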
